A study of Homo sapiens with 10 samples.

Results

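Homologous recombination and Fanconi anemia genes were followed in HeyA8, a line of human ovarian cancer cells that was derived from Hey cells. The members were 32 genes chosen by symbol, which covered strand exchange and end processing, dissolution of joined DNA, the Fanconi anemia pathway, the kinases that signal DNA damage, and MSH6. They were 32 of 58395 genes in the count files, and all 32 were among the 16905 genes with enough counts to be tested. The choice was made with earlier results of these data known, so the shares of members that changed may partly reflect it. All cells were parental HeyA8 cells transfected with 10 nM of an siRNA, and total RNA was taken 24 or 48 h later. siNT1, a non-targeting duplex with the label siNT1 S2'OM, was sampled at 24 h and at 48 h. siGGGGGC, called siMxy in the labels, was sampled at the same times, and siGGCAGU, called si34a, at 48 h. Both are named after their 6mer seed, positions 2 to 7 of the strand that guides the silencing complex to messenger RNAs. By the paper's sequences, siNT1, siGGGGGC and siGGCAGU all have the same modified bases at the start of the other (passenger) strand. Each of the 5 groups held 2 libraries from separate wells, so p-values measure only the spread between wells and libraries of a single cell line.

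Homologous recombination repairs a broken chromosome by copying the sister chromatid, and it therefore works in S and G2 phase. BRCA1 with BARD1 promotes trimming of the broken ends, and PALB2 links BRCA1 to BRCA2. The Fanconi anemia pathway handles DNA crosslinks: a core complex with the ligase FANCL and the conjugating enzyme UBE2T attaches ubiquitin to FANCD2 and FANCI. ATM and ATR sense breaks and stalled forks and act through the kinases CHEK2 and CHEK1. Many of these genes are transcribed mainly in dividing cells, where E2F factors are among their known regulators. In ovarian cancer, inherited mutations of several of them are known risk factors.

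The sequences through which a seed and a member could meet are shown first. In the RefSeq set (GRCh38.p14), the following mature microRNAs are among those that share positions 2 to 7 with siGGGGGC (miR-1237-5p and miR-4488) or with siGGCAGU (miR-34a-5p and miR-449a). Capitals mark bases 2 to 8.
miR-1237-5p: cGGGGGCGgggccgaagcgcg
miR-4488: aGGGGGCGggcuccggcg
miR-34a-5p: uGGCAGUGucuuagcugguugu
miR-449a: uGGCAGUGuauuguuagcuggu

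The reverse complement of the siGGGGGC seed, GCCCCC, was present in the 3′ UTR of the main (MANE Select) transcript of 3 members, BRCA1, RAD51D and XRCC3. That of the siGGCAGU seed, ACTGCC, was present in 9 members, and XRCC2 and ATM each held 2 copies. The 3 sites for siGGGGGC are given with those of XRCC2 and ATM, which changed in opposite directions with siGGCAGU. The match is in capitals, and the coordinates are hg38 positions of the match.
BRCA1, chr17:43044393-43044398, minus strand: aggtcttccctaGCCCCCccagtgtgcaag
RAD51D, chr17:35095345-35095350, minus strand: ttacaagcatgcGCCCCCatccccggctct
XRCC3, chr14:103698416-103698421, minus strand: cgtctgaggcctGCCCCCtgggctggggcc
XRCC2, chr7:152646857-152646862, minus strand: gttcgttgcagcACTGCCcatcagtgacag
XRCC2, chr7:152645093-152645098, minus strand: aaagtgcagctcACTGCCagcgctcattta
ATM, chr11:108366849-108366854, plus strand: catttaattcccACTGCCtgcctttggcaa
ATM, chr11:108368352-108368357, plus strand: ctaagatagaaaACTGCCaaggacaaatga

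Total counts per library ranged from 19781445 to 42428986, and the members' raw counts from 15 to 5798. Replicates of a group were not copies of each other. The chi-square over its degrees of freedom was 2.64 with siNT1 and 4.31 with siGGGGGC at 24 h. At 48 h it was 42.7 with siNT1, 57.2 with siGGCAGU and 15 with siGGGGGC. It was scaled by library totals, so it also takes in differences in composition. The fit gave each gene 1 spread for all groups, so standard errors may be too small for the noisier groups and too large for the others. Between the replicates of a group the members' median absolute log2 difference was 0.0591 to 0.155, and it was widest for RMI1 with siNT1 at 48 h, at 1.00, and for FANCC with siGGCAGU, at 0.988. As for the labelled cell type, the ovarian lineage factor PAX8 had 84 to 1142 raw counts and the keratins KRT7, KRT8 and KRT18 had 1777 to 11235. EPCAM, CDH1, MUC16 and KRT19 stayed at or below 51 counts in every library, while the mesenchymal filament gene VIM had 18721 to 68656. Blood cell markers were at 0 to 6 counts and endothelial markers at 0 to 28. With siGGGGGC at 48 h, 5 of 7 tested ovarian lineage and epithelial markers fell beyond a log2 fold change of 1, where 11% of all genes did, and all 3 mesenchymal markers (VIM, FN1 and CDH2) fell too, with log2 fold changes of -3.72 to -0.49.

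Levels were compared between genes per kilobase of the MANE Select transcript. In siNT1 cells at 24 h UBE2T was highest, with 1837 normalised counts per kb (counts scaled to a common library size), and ATR, MSH6 and CHEK1 followed with 448, 442 and 434. FANCD2 had 364, the median member 131.7, and FANCC and RAD51D were lowest with 26.2 and 16.6. BRCA1 with 149 and BRCA2 with 111 lay near the middle. Where reads of neighbours could mix, counts are uncertain, since the strand setting of the counting was not stated: 76.7% of the exonic bases of XRCC3 lie opposite KLC1, 24.2% of MSH6 opposite FBXO11 or RPL36AP15, 19.9% of RAD54L opposite LRRC41, 19.6% of FANCA opposite ZNF276 and 9.57% of FANCF opposite GAS2, and 66.0% of RAD54B is shared with FSBP. BRCA1, FANCD2 and CHEK2 have pseudogene copies in the genome.

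To ask whether the repair genes responded early to the seed, siGGGGGC was compared with siNT1 at 24 h. The summed members had 1025 and 1029 normalised CPM (counts scaled to library size) with siNT1 and 1039 and 1074 with siGGGGGC, 102.8% of the control. At an adjusted p below 0.05 (edgeR quasi-likelihood F test, Benjamini-Hochberg adjustment over all genes tested), 4 members rose and 0 fell, where 10.6% of all genes rose and 8.32% fell. At an unadjusted p below 0.05 the count that fell was 0 as well, and DESeq2 called 0, while 3 fell when only the 4 libraries of this comparison were fitted (log2 fold changes of -0.19 for BRCA1 and -0.25 for XRCC2 and FANCL). The members' median log2 fold change was 0.05.

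FANCG (ENSG00000221829, chr9:35073835-35080004 of hg38, minus strand), a core complex subunit, had 732 and 723 normalised counts in the siNT1 wells and 1021 and 1115 with siGGGGGC. Both treated wells stood above both controls, and the log2 fold change was 0.55 ± 0.09 (SE, as after every ± here; adjusted p = 0.000779, edgeR). RMI1, a partner of the BLM helicase, had 125 and 177 against 245 and 293. Its log2 fold change of 0.84 ± 0.27 was the largest of the 4, with a wide spread between wells. RAD54L, a motor protein that remodels DNA during strand exchange, had 171 and 186 against 247 and 236, a log2 fold change of 0.44 ± 0.15. BARD1 had 989 and 879 against 1239 and 1209.7, a log2 fold change of 0.39 ± 0.10. FANCG passed with any 1 of the 10 libraries left out. BARD1 did not pass without siNT1 replicate 2 (0.32) or either siGGGGGC library at 24 h (0.38 and 0.41), and RAD54L (0.38 to 0.51) and RMI1 (0.61 to 1.12) did not pass without any 1 of the siNT1 libraries at 24 h or of the siGGGGGC libraries at either time. The number of members that rose ran from 1 to 5 over these omissions.

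**Figure D1:**
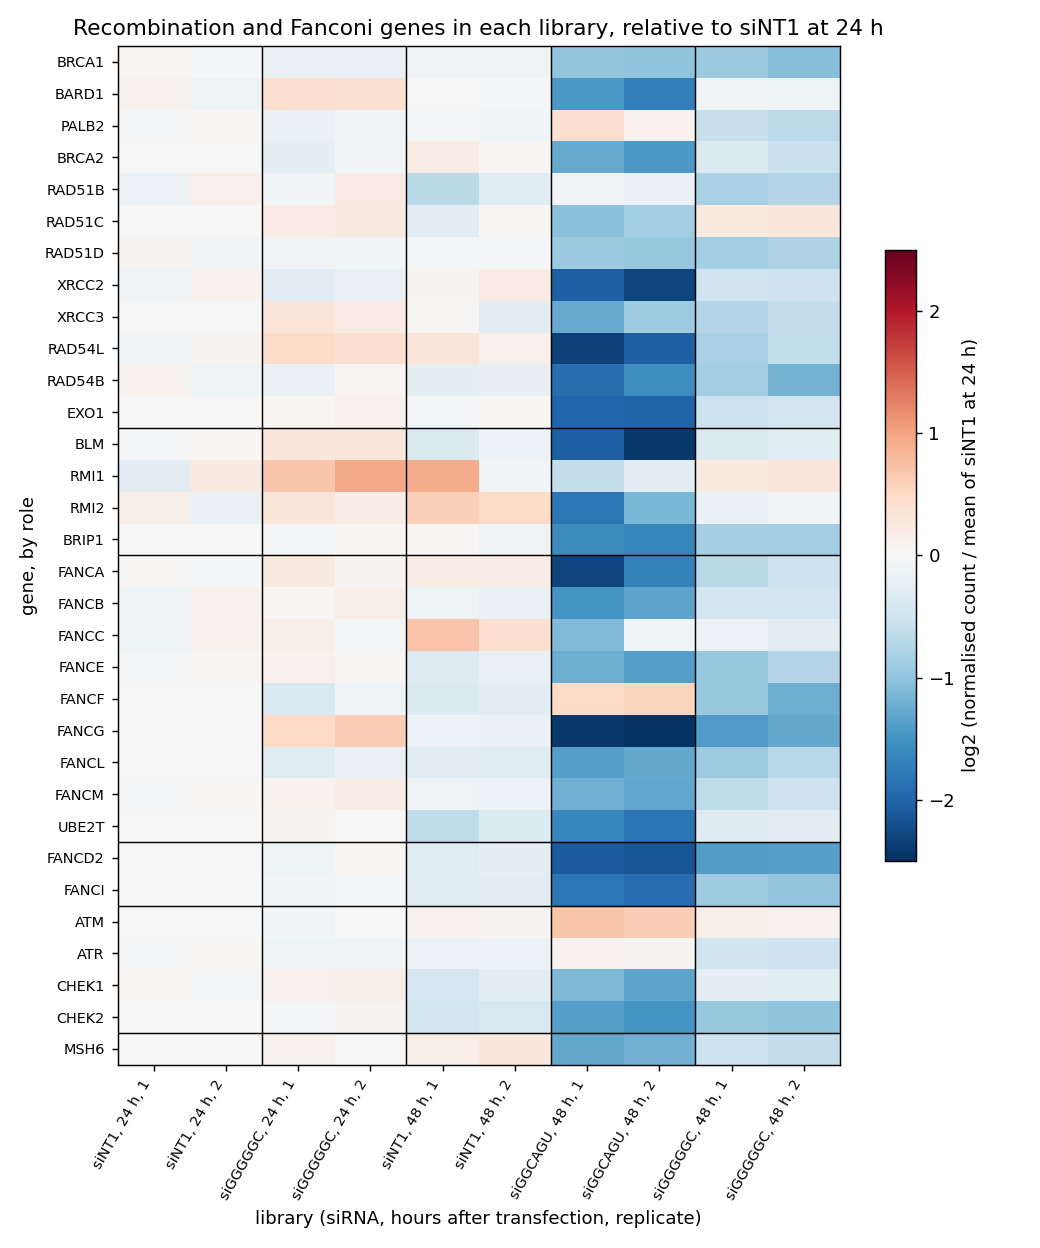
Heat map of the 32 members (rows, by role) in the 10 libraries (columns, by group), coloured by the log2 ratio of the normalised count to the mean of both siNT1 libraries at 24 h. Most members are lower in the siGGGGGC libraries at 48 h and lower still in the siGGCAGU libraries, while ATM, with 3947 and 3754 normalised counts, and FANCF, with 170.0 and 176, are higher with siGGCAGU.

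At 48 h the members were mostly lower with siGGGGGC. The summed members had 950.5 and 971 normalised CPM with siNT1 and 736 and 727 with siGGGGGC, 76.1% of the control. In all, 24 of 32 members (75%) fell and 1 rose, where 27.5% of all genes fell and 27.8% rose. The falls were moderate: 2 members, FANCG and FANCD2, fell beyond a log2 fold change of 1, against 11% of all genes, and the median over the members was -0.57. The summed proliferation markers, 15 genes of dividing cells, were at 76.9% of siNT1 in the same libraries. This sum is weighted by abundant genes such as CCNB1 (8993 and 10031 normalised counts with siNT1, 4613 and 4718 with siGGGGGC). By gene, 8 of the 15 fell and 1 rose, with a median log2 fold change of -0.50. The markers' part in the result was not tested. In bulk RNA, fewer dividing cells and less RNA of these genes per cell cannot be told apart.

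Among the genes of strand exchange and end processing, 9 of 12 fell and 1 rose. BRCA1 (ENSG00000012048, chr17:43044295-43170245 of hg38, minus strand) had 1009 and 1000.2 normalised counts with siNT1 and 554 and 504 with siGGGGGC. Both treated wells lay far under both controls, with a fitted level of 52.7% and a log2 fold change of -0.92 ± 0.09 (adjusted p = 4.71e-07, edgeR). Its partner BARD1, with 946 and 909 against 886 and 861, did not pass (-0.09 ± 0.10, adjusted p = 0.48, edgeR). BRCA2 had 1513 and 1367 against 1043 and 909, a log2 fold change of -0.56 ± 0.10. The groups did not overlap for BRCA1 or BRCA2. RAD54L had 222 and 194 against 102 and 117 and fell by 0.92 ± 0.15 on the log2 scale. XRCC2, which acts in strand exchange, had 572 and 628 against 387 and 383 (-0.64 ± 0.11), and the exonuclease EXO1 had 854 and 919 against 607 and 631 (-0.52 ± 0.09). PALB2 (-0.57), the strand exchange genes RAD51D (-0.77) and XRCC3 (-0.56), and the motor protein RAD54B (-0.80) fell too. RAD51C was the member that rose (0.36 ± 0.10), and RAD51B had 184 and 237 against 168 and 176 and did not pass (-0.30).

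Of the 9 core complex genes and their helpers, 8 fell. FANCG, the member most raised by siGGGGGC at 24 h after RMI1, had 653 and 646 normalised counts with siNT1 and 274 and 301 with siGGGGGC at 48 h. That is a fitted 44.4% of the control (log2 fold change -1.17 ± 0.10, adjusted p = 1.16e-07, edgeR). FANCA had 455 and 458 against 247 and 278 (-0.80 ± 0.14), and FANCF, an adaptor within the core complex, had 93.7 and 101 against 62.6 and 51.8 (-0.77 ± 0.17). FANCC (-0.76), FANCE (-0.58), the ligase FANCL (-0.52), the DNA translocase FANCM (-0.45) and FANCB (-0.31) also fell. UBE2T had 1043 and 1280.4 against 1296 and 1319, with a log2 fold change of 0.17 ± 0.10 that did not pass. Both substrates of the core complex fell. FANCD2 (ENSG00000144554, chr3:10026370-10101932 of hg38, plus strand) had 1500.2 and 1589 against 699.7 and 717 (-1.12 ± 0.09, adjusted p = 6.37e-08, edgeR), and FANCI had 1168 and 1212 against 777 and 732 (-0.66 ± 0.09). In neither did a treated well reach a control well.

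Of the helicases and their partners, BRIP1, a helicase that binds BRCA1, fell from 705 and 652 to 388 and 378 normalised counts (-0.82 ± 0.10), and RMI2 fell (-0.66). BLM, with 429 and 501 against 429 and 451, did not pass (-0.08), nor did RMI1, with 287 and 143 against 178 and 187 (-0.21), whose control wells lay far apart. Among the kinases, ATR had 3289 and 3322 against 2589 and 2550.5 and fell by 0.36 ± 0.08 on the log2 scale, and CHEK2 had 256 and 266 against 183 and 175 and fell by 0.54 ± 0.12. ATM, with 2589 and 2557 against 2683 and 2616 (0.04 ± 0.08), and CHEK1, with 1347 and 1471 against 1535 and 1462 (0.09 ± 0.09), did not pass. MSH6, which recognises mismatched bases, had 2114 and 2252 against 1307 and 1254 and fell by 0.77 ± 0.08. With each library left out in turn, 21 of the 24 falls passed every time. FANCB did not pass in 8 of the 10 omissions (-0.35 to -0.30), RMI2 without siGGGGGC replicate 1 at 48 h (-0.62), FANCC without replicate 2 (-0.71), and the rise of RAD51C was lost without siNT1 replicate 1 at 48 h (0.22).

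**Figure D2:**
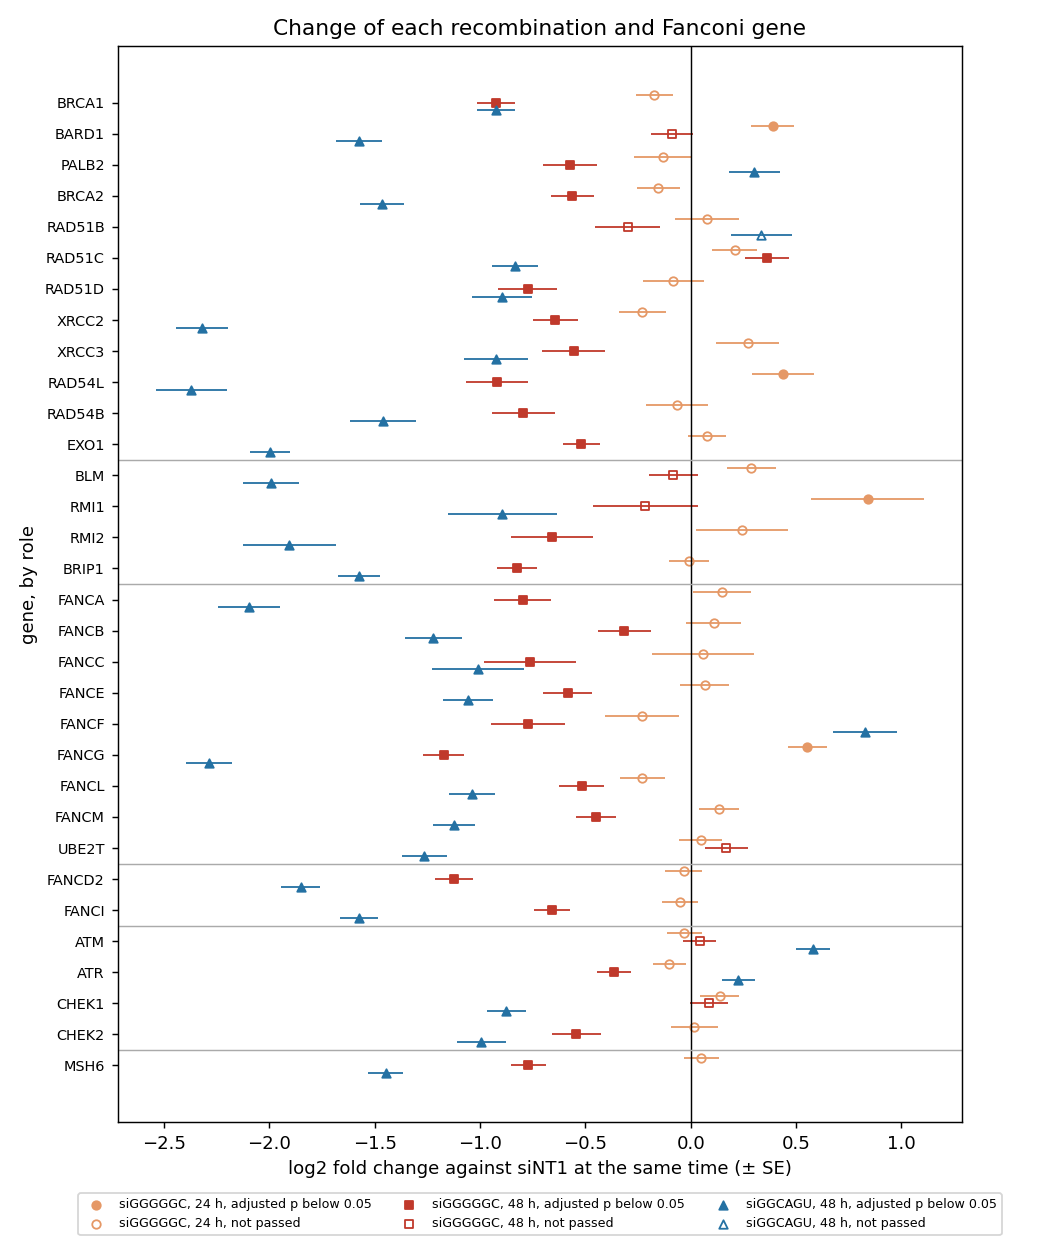
Log2 fold change (x axis, with its standard error as bars) of each member for siGGGGGC at 24 h, siGGGGGC at 48 h and siGGCAGU at 48 h, each against siNT1 of the same time, with filled points for an adjusted p below 0.05. Most points lie near 0 at 24 h, left of 0 with siGGGGGC at 48 h and farthest left with siGGCAGU, where FANCF (0.83) and ATM (0.58) lie to the right.

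With siGGCAGU, which carries the seed of miR-34a-5p, most members were lower again, many of them by more than with siGGGGGC. Its summed members had 606 and 588 normalised CPM, 62.1% of siNT1. ATM and ATR, which did not fall, had by far the highest counts of the members and weigh most in this sum. Of the 32 members 27 fell (84.4%) and 4 rose, where 24.9% of all genes fell and 27.8% rose, and 20 fell beyond a log2 fold change of 1, against 9.61%. The median over the members was -1.17. The proliferation markers fell in 15 of 15 cases, and their sum was at 30.2% of siNT1 in the same libraries. Their part in the members' fall was not tested.

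The largest falls were those of RAD54L, XRCC2, FANCG, FANCA and EXO1. RAD54L had 35.3 and 43.1 normalised counts against the siNT1 values given above, a fitted 19.3% of the control (log2 fold change -2.37 ± 0.17, adjusted p = 1.45e-08, edgeR). XRCC2 had 132 and 112 (-2.32 ± 0.12), FANCG had 136 and 131 (-2.29 ± 0.11), FANCA had 82.4 and 124 (-2.10 ± 0.15) and EXO1 had 225 and 220.2 (-1.996 ± 0.10). All 5 lay far under their controls in both wells, with the spread between wells widest in FANCA. BLM had 135 and 104 (-1.99 ± 0.13), FANCD2 had 436 and 422 (-1.85 ± 0.09) and FANCI had 413 and 388 (-1.57 ± 0.09). BARD1, which did not pass with siGGGGGC at 48 h, had 345 and 283 (-1.57 ± 0.11).

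BRCA1 had 536 and 524 normalised counts with siGGCAGU, a log2 fold change of -0.92 ± 0.09 (adjusted p = 4.22e-07, edgeR), and BRCA2 had 553 and 493 (-1.47 ± 0.10). BRIP1 had 233 and 224 (-1.57 ± 0.10), MSH6 had 781 and 817 (-1.45 ± 0.08) and UBE2T had 522 and 452 (-1.26 ± 0.11). Of the checkpoint kinases, the downstream ones fell, CHEK1 to 819 and 722 (-0.88 ± 0.09) and CHEK2 to 136 and 127 (-0.99 ± 0.12). The sensor kinase ATM rose to 3947 and 3754 (0.58 ± 0.08, adjusted p = 1.68e-05, edgeR). ATR had 3878 and 3854 (0.23 ± 0.08, adjusted p = 0.0241), a small rise that did not pass in 9 of the 18 alternatives.

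FANCF rose to 170.0 and 176 normalised counts (0.83 ± 0.15), the largest rise among the members. PALB2 rose by 0.30 ± 0.12 (adjusted p = 0.0472, edgeR), a rise that did not pass in 15 of the 18 alternatives. RAD51B, with 276 and 259.6, did not pass (0.34 ± 0.15). The other falls were between -1.91 (RMI2) and -0.83 (RAD51C), and they took in RAD51D (-0.90), XRCC3 (-0.92), RAD54B (-1.46), RMI1 (-0.89), FANCB (-1.22), FANCC (-1.01), FANCE (-1.05), FANCL (-1.04) and FANCM (-1.12). With each library left out, 26 of 27 falls passed every time; RMI1, at 99.4 and 125, did not pass without siNT1 replicate 1 at 48 h (-0.33). FANCC kept its call, at -0.67 without siGGCAGU replicate 1 and -1.66 without replicate 2. The rises of ATM and FANCF passed every time. PALB2 did not pass in most of these omissions (0.14 to 0.31, lowest without siGGCAGU replicate 1), nor did ATR in 7 of 10 (0.21 to 0.23).

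Both siRNAs were compared directly at 48 h, since their comparisons with siNT1 share the control libraries. With siGGGGGC 23 members were higher and 5 lower than with siGGCAGU, where 26.7% and 27.6% of all genes were, and 10 were higher beyond a log2 fold change of 1, against 10.1%. The median over the members was 0.70. In 17 members the level was lower than siNT1 with both siRNAs and lower with siGGCAGU than with siGGGGGC, among them BRCA2 (0.90 ± 0.11), FANCD2 (0.73 ± 0.10), FANCG (1.11 ± 0.12), XRCC2 (1.68 ± 0.13) and MSH6 (0.68 ± 0.09). In another 5, BARD1 (1.49 ± 0.11), BLM (1.91 ± 0.14), CHEK1 (0.96 ± 0.09), RMI1 (0.68 ± 0.27) and UBE2T (1.43 ± 0.11), the fall against siNT1 passed with siGGCAGU and not with siGGGGGC, and the direct difference passed. The counts of 17 and 5 each join several calls. The share of all genes with the same joint calls was not counted, so they only sort the members.

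BRCA1 fell with both siRNAs, and the direct comparison gave a log2 difference of -0.0022 ± 0.09 (adjusted p = 0.987, edgeR). FANCC (0.25 ± 0.24), RAD51D (0.12 ± 0.16) and XRCC3 (0.37 ± 0.16) also fell with both without a direct difference that passed, which does not show that the levels are equal. ATR (-0.59 ± 0.08), PALB2 (-0.87 ± 0.13) and FANCF (-1.60 ± 0.17) went down with siGGGGGC and up with siGGCAGU, and the direct difference passed in each. RAD51C went the other way (1.20 ± 0.11). The rise of PALB2 with siGGCAGU did not pass in 15 of the 18 alternatives, so its opposite direction is uncertain. That of ATR did not pass in 9, and the rise of RAD51C with siGGGGGC did not pass in 2. ATM (-0.54 ± 0.08) and RAD51B (-0.63 ± 0.15) were lower with siGGGGGC than with siGGCAGU. All 5 differences in that direction and 19 of the 23 in the other passed with each library left out; RMI1 (0.54 to 0.71 in the 5 omissions that lost it), FANCE (0.36 to 0.39), CHEK2 (0.39 to 0.41) and RAD54B (0.50) did not. For FANCE these were siGGCAGU replicate 2 and siGGGGGC replicate 2, for CHEK2 siGGCAGU replicate 2 and siGGGGGC replicate 1, and for RAD54B siGGGGGC replicate 1, all at 48 h. For RMI1 they were both siGGGGGC libraries at each time and siGGCAGU replicate 1.

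Genes that act in the same complex or signalling path were set against each other as ratios of raw counts within a library. These ratios do not depend on the library size and are compared between groups only. BARD1 over BRCA1 was 0.909 and 0.857 with siNT1 at 24 h and 1.33 and 1.28 with siGGGGGC. At 48 h it was 0.938 and 0.909 with siNT1, 1.60 and 1.71 with siGGGGGC and 0.644 and 0.54 with siGGCAGU, so the ratio was above the control with one siRNA and below it with the other. PALB2 over BRCA2 was 0.189 and 0.202 with siNT1 and 0.185 and 0.203 with siGGGGGC at 48 h, ranges that overlap, and 0.702 and 0.629 with siGGCAGU. FANCF over FANCG was 0.143 and 0.156 with siNT1, 0.229 and 0.172 with siGGGGGC and 1.25 and 1.34 with siGGCAGU. CHEK1 over ATR was 0.409 and 0.443 with siNT1, 0.593 and 0.573 with siGGGGGC and 0.211 and 0.187 with siGGCAGU. CHEK2 over ATM was 0.0987 and 0.104 with siNT1, 0.0683 and 0.0669 with siGGGGGC and 0.0345 and 0.0339 with siGGCAGU. FANCI over FANCD2 was 0.778 and 0.762 with siNT1, 1.11 and 1.02 with siGGGGGC and 0.949 and 0.919 with siGGCAGU, above the control with both siRNAs. RAD51C over RAD51D was 3.70 and 4.55 with siNT1, 9.34 and 8.88 with siGGGGGC and 3.98 and 4.59 with siGGCAGU, with siGGCAGU overlapping the control. The same held at 48 h for UBE2T over FANCL (2.26 and 2.79 with siNT1, 2.42 and 1.96 with siGGCAGU) and for RAD51C over XRCC3 (2.66 and 3.94, 3.76 and 3.31). It also held for BLM over RMI2 (4.10 and 5.21, 6.87 and 3.33). With siGGGGGC each of these ratios was above both control libraries. An exact permutation test of 2 libraries against 2 cannot give a two-sided p under 0.333, so the ratios are given without a test.

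**Figure D3:**
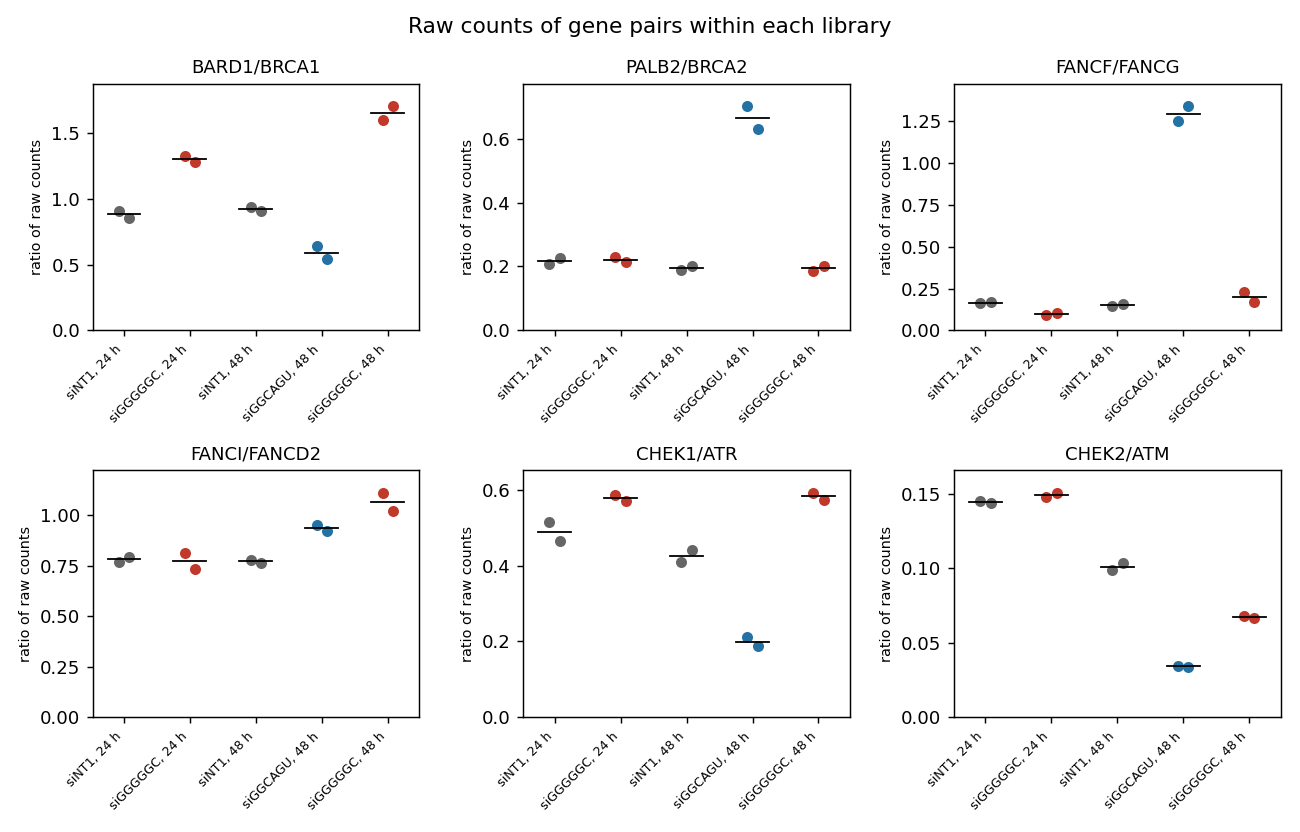
Ratio of raw counts of partner genes (y axis, no unit, from 0) in each library, by group, with 1 point per library and a bar at the mean. BARD1 over BRCA1 is highest with siGGGGGC at 48 h and lowest with siGGCAGU, and FANCF over FANCG is 1.25 and 1.34 with siGGCAGU against at most 0.229 elsewhere.

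In siNT1 cells 5 members (15.6%) fell and 0 rose between 24 and 48 h by edgeR, where 7.2% of all genes fell and 9.36% rose. At an unadjusted p below 0.05 3 members rose, and 0 by DESeq2. The median log2 fold change was -0.11 over the members and -0.0039 over all genes. The 5 were UBE2T (-0.47 ± 0.10), RAD51B (-0.46 ± 0.15), CHEK2 (-0.43 ± 0.11), CHEK1 (-0.35 ± 0.09) and FANCI (-0.28 ± 0.08). UBE2T had 1603 and 1624 normalised counts at 24 h and 1043 and 1280.4 at 48 h, and CHEK1 had 1853 and 1731 against 1347 and 1471. CHEK2 had 357 and 348 against 256 and 266, FANCI had 1428 and 1464 against 1168 and 1212, and RAD51B had 265 and 319 against 184 and 237. Each of the 5 was lower in both wells at 48 h, but none passed with every library left out in turn: all 5 were lost without siNT1 replicate 1 or 2 at 24 h or replicate 1 at 48 h, and FANCI and RAD51B also without any 1 siGGGGGC library. RAD51B was at -0.29 without siNT1 replicate 1 at 48 h.

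Next, the response to siGGGGGC at 48 h was set against that at 24 h. The difference of its log2 fold changes, 48 h minus 24 h, was below 0 at an adjusted p below 0.05 in 19 members and above 0 in 0 (also 0 at an unadjusted p below 0.05 and 0 by DESeq2), where 15.2% and 13.4% of all genes were, and the median over the members was -0.59. It was below -1 in 4 members, against 6.35% of all genes. The widest were FANCG (-1.73 ± 0.14, adjusted p = 5.06e-07), RAD54L (-1.36 ± 0.21), FANCD2 (-1.09 ± 0.13), RMI1 (-1.05 ± 0.36) and FANCA (-0.95 ± 0.19). For FANCD2 the 24 h values were 1856 and 1849 with siNT1 and 1692 and 1928 with siGGGGGC, wells that overlap, while at 48 h they lay well apart. MSH6 had 1885 and 1884 against 2001 and 1903 at 24 h, and BRCA1 had 1088 and 1025 against 931 and 945. With each library left out 12 of the 19 passed every time. BARD1, BRCA2, RMI1, RMI2, CHEK2, RAD51D and RAD54B did not, with values of -0.51 to -0.41, -0.42 to -0.32, -1.19 to -0.51, -0.97 to -0.78, -0.56 to -0.53, -0.67 to -0.65 and -0.66 to -0.59 in the omissions that lost them. These were omissions of siNT1 or siGGGGGC libraries at either time. Of the other kinases, ATM had 2458 and 2419.6 with siNT1 and 2334 and 2445 with siGGGGGC at 24 h, and ATR had 3603 and 3709 against 3342 and 3473, and neither effect differed between the times at the threshold (0.07 ± 0.11 and -0.26 ± 0.11).

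Other repair genes were counted in the same way. Over all genes tested, 8.32% fell and 10.6% rose with siGGGGGC at 24 h, 27.5% and 27.8% at 48 h, and 24.9% and 27.8% with siGGCAGU, and the counts of each list are to be read against these shares. Of 38 tested genes of recombination and crosslink repair that are not members, 3 fell and 7 rose with siGGGGGC at 24 h, 13 fell and 6 rose at 48 h, and 18 fell and 8 rose with siGGCAGU. Their medians were 0.12, -0.10 and -0.38, against 0.05, -0.57 and -1.17 for the members. Members and lists were chosen with earlier results of these data known, so this contrast may partly reflect the choice. RPA1, which coats single-stranded DNA, was the widest at 24 h (1.21 ± 0.25). The core complex partner FAAP100 (-1.14 ± 0.18) and the nuclease pair MUS81 (-0.95 ± 0.11) and EME1 (-0.92 ± 0.17) fell furthest with siGGGGGC at 48 h. USP1, which removes ubiquitin from FANCD2, fell furthest with siGGCAGU (-1.79 ± 0.11), followed by the end resection factor RBBP8 (-1.68 ± 0.11) and CENPS (-1.42 ± 0.29).

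Of 18 checkpoint adaptors and chromatin response genes, 0 fell (3 at an unadjusted p below 0.05, 0 by DESeq2) and 4 rose with siGGGGGC at 24 h, 9 fell and 6 rose at 48 h, and 12 fell and 3 rose with siGGCAGU. Claspin (CLSPN), which brings CHEK1 to ATR, fell with siGGGGGC at 48 h (-0.99 ± 0.11) and with siGGCAGU (-2.07 ± 0.11). CDC25A, a phosphatase that CHEK1 controls, fell by far the most with siGGCAGU (-3.47 ± 0.12). Of 6 mismatch repair genes beside MSH6, 2 fell with siGGGGGC at 48 h: PMS2 (-1.27 ± 0.15) and PMS1 (-0.78 ± 0.09). PMS1 also fell with siGGCAGU (-0.41 ± 0.09). Of 11 end joining genes, which serve the competing repair route, 1 rose at 24 h, 7 fell and 2 rose with siGGGGGC at 48 h, and 8 fell and 2 rose with siGGCAGU, led by POLQ (-1.95 ± 0.10), PARP1 (-1.73 ± 0.15) and XRCC6 (-1.50 ± 0.10).

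**Figure D4:**
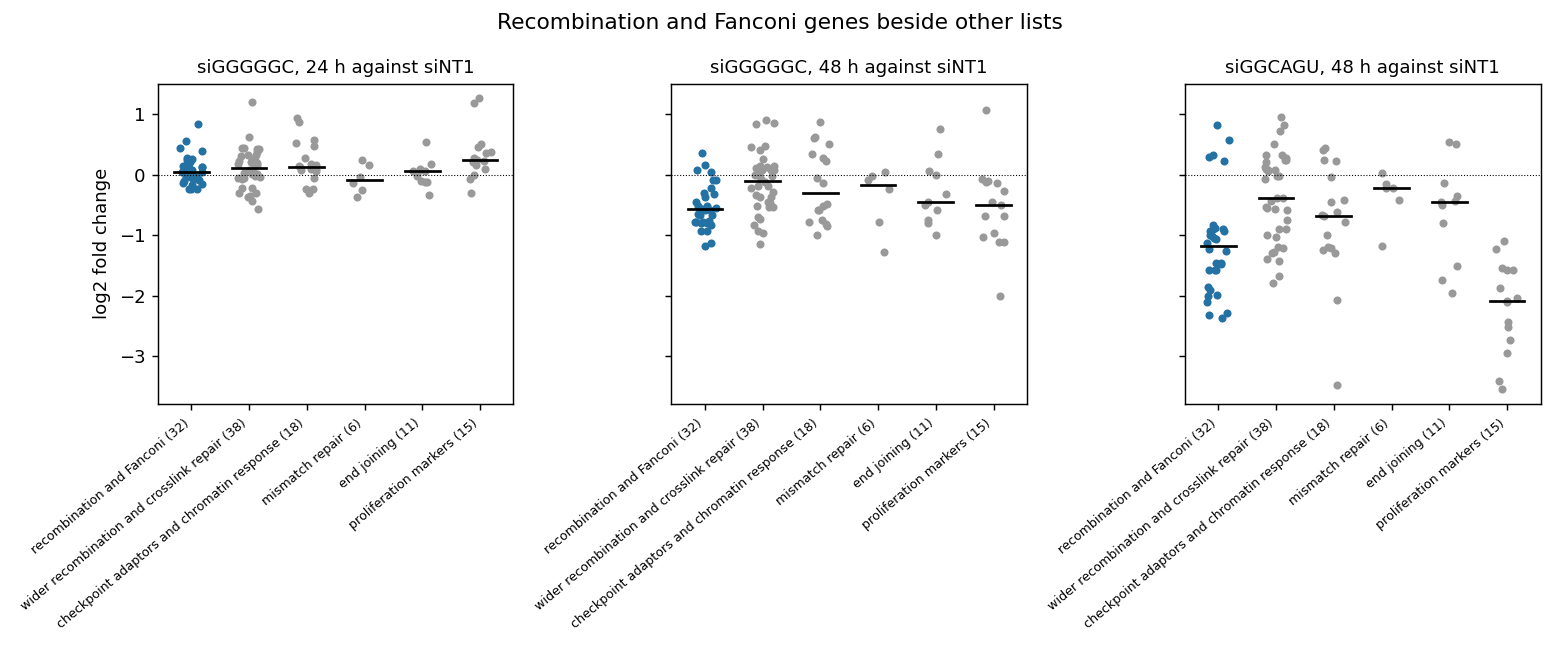
Log2 fold change (y axis) of each tested gene of the members and of the lists of other repair, checkpoint and proliferation genes, in siGGGGGC at 24 h, siGGGGGC at 48 h and siGGCAGU at 48 h against siNT1, with 1 point per gene and a bar at the median. The members' median goes from 0.05 to -0.57 and -1.17, and that of the proliferation markers from 0.25 to -0.50 and -2.09.

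The proliferation markers' values stand beside those of the members. Their summed normalised counts were 50131 and 51067 with siNT1 and 66613 and 69146 with siGGGGGC at 24 h, 134.2% of the control. At 48 h they were 43568 and 44262 with siNT1, 33763 and 33814 with siGGGGGC and 13736 and 12828 with siGGCAGU. With siGGGGGC 5 of 15 rose and 0 fell at 24 h (1 at an unadjusted p below 0.05, 0 by DESeq2), led by RRM2 (1.27 ± 0.11) and CCNE2 (1.19 ± 0.11), and 8 fell and 1 rose at 48 h, led by FOXM1 (-2.01 ± 0.13). With siGGCAGU 15 of 15 fell, led by E2F8 (-3.54 ± 0.23) and MYBL2 (-3.40 ± 0.16). At 24 h the members' sum was at 102.8% of the control while the markers' sum was above it, and with siGGCAGU the members' sum was at 62.1% and the markers' at 30.2%. The members' sum with siGGCAGU is weighted by ATM (3947 and 3754 normalised counts) and ATR (3878 and 3854), which did not fall. By gene, the median log2 fold change with siGGCAGU was -1.17 for the members and -2.09 for the markers. The part that cell division has in the members' levels was not tested.

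**Figure D5:**
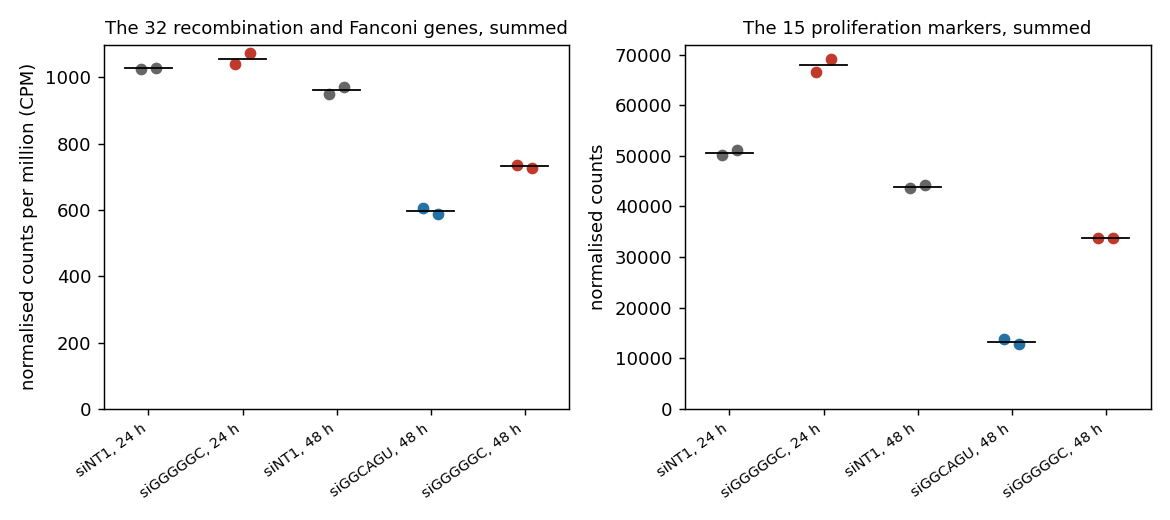
Summed members (left, normalised CPM) and summed proliferation markers (right, normalised counts) in each library by group, with 1 point per library and a bar at the mean. Members and markers are lowest in both siGGCAGU libraries and intermediate with siGGGGGC at 48 h, and at 24 h the markers are at 66613 and 69146 with siGGGGGC against 50131 and 51067 with siNT1.

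The seed matches printed above were set against the changes. A GCCCCC word was in the 3′ UTR of 3 of 32 members, while 29.4% of 12323 tested genes with a MANE Select 3′ UTR held it. The 3′ UTRs of members and other genes were not matched in length or base composition, so such shares are not of like sets. With siGGGGGC at 48 h all 3, BRCA1 (-0.92), RAD51D (-0.77) and XRCC3 (-0.56), fell, as did 21 of the other 29, with medians of -0.77 and -0.56. With the longest 3′ UTR of each gene in place of the MANE Select one, FANCB and FANCL held the word too, and the medians were -0.56 for the 5 and -0.57 for the other 27. At 24 h 0 fell in either class. When only the 4 libraries of that comparison were fitted, BRCA1 fell, and so did XRCC2 and FANCL, which held no GCCCCC in the MANE Select 3′ UTR. FANCD2 and FANCG, which fell furthest at 48 h, held no GCCCCC in this 3′ UTR either. An ACTGCC word was in 9 members, while 34.2% of genes held it. With siGGCAGU 8 of the 9 fell, as did 19 of the other 23, with medians of -1.06 and -1.26. By the longest 3′ UTR 9 of 11 with the word fell (median -1.06) and 18 of 21 without it (-1.45). XRCC2, with 2 copies, had 132 and 112 normalised counts against 572 and 628 with siNT1, and ATM, also with 2 copies, had 3947 and 3754 against 2589 and 2557. By the MANE Select 3′ UTR the ACTGCC word was in 8 members that fell and in ATM, which rose. The part of the words in these changes was not tested. A match is a description of the letters and not a site shown to be used.

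The promoters, 250 bases before to 50 after each RefSeq start site (GRCh38.p14), were searched on both strands for 3 words of cell cycle promoters in the 29 members that had an entry. RAD54B, RMI2 and FANCI had none. An E2F word (TTTCCCGC or TTTGGCGC) was in 4 of 29, or 13.8%, where 2.75% of 27305 genes held one. These are all genes with a promoter entry, whether or not their counts were tested. They were not matched to the members in base composition or number of start sites, so the shares are not of like sets. The CHR word TTTGAA was in 4 of 29 against 18.2% of genes, and CCAAT was in 15, or 51.7%, against 39.7%. The 4 with the E2F word are shown on the gene's strand with the word in capitals (GCGGGAAA is the reverse complement of TTTCCCGC, so in FANCD2 and XRCC2 the word lies on the opposite strand). They are shown because all 4 fell with both siRNAs at 48 h.
MSH6, chr2:47783137-47783166, plus strand: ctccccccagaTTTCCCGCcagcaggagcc
FANCD2, chr3:10026424-10026453, plus strand: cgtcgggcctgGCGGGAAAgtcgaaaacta
XRCC2, chr7:152676102-152676131, minus strand: tggcgttggtgGCGGGAAAgttgagtctct
FANCC, chr9:95317737-95317766, minus strand: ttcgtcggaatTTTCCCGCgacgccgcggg
With siGGGGGC and siGGCAGU the log2 fold changes were -0.77 and -1.45 for MSH6, -1.12 and -1.85 for FANCD2, -0.64 and -2.32 for XRCC2, and -0.76 and -1.01 for FANCC. Of the 25 members with a promoter entry and no E2F word, 17 fell with siGGGGGC and 20 with siGGCAGU. The search was for the exact letters, and the part of E2F factors in the falls was not tested.

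Over the 5 group means, the mean of the members' z-scored profiles was 0.524 in siNT1 at 24 h, 0.626 in siGGGGGC at 24 h, 0.405 in siNT1 at 48 h, -0.427 in siGGGGGC at 48 h and -1.13 in siGGCAGU. RAD54B, FANCD2 and BRIP1 followed it most closely (Pearson's r of 0.997, 0.996 and 0.995 over 5 groups, each gene being itself part of the profile). ATM ran against it (r = -0.916), and FANCF (-0.231), PALB2 (-0.135) and ATR (0.0054) had values nearer 0. Outside the members, the 5 genes with the most similar course were NUP50 (0.9989), DONSON (0.9988), HDHD5 (0.9987), CFL1 (0.9984) and MIS18A (0.9983). With 5 points these values are a description only.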

How the data were processed

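Total RNA of HeyA8 cells in duplicate wells was depleted of ribosomal RNA and sequenced paired-end (molecules above 140 nt, per the labels). The authors trimmed reads with Trimmomatic, aligned them to hg38 with TopHat or STAR and deposited raw counts per Ensembl gene from HTSeq, whole numbers without normalization. The strand setting was not given in the sources used here. Their deposited comparison tables (mean normalised count, log2 fold change and p-values) were not used.

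From the counts of 10 libraries in 5 groups, genes with low counts were removed with filterByExpr, and 16905 of 58395 genes were tested by quasi-likelihood F test (edgeR 4.0.16, R 4.3.3), with TMM scaling and no covariate. P-values were adjusted over all genes tested by the Benjamini-Hochberg method. There were 0 entries naming no gene, 5 residual degrees of freedom and a biological coefficient of variation of 0.0837. The standard error is the log2 fold change divided by the root of F. The fit was tested on simulated data. The normalised count is the count divided by the TMM library size and multiplied by the mean of these sizes, and n = 2 libraries throughout. The 18 alternatives included DESeq2 1.42.0 and each library left out in turn.

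Genes were matched to GENCODE v44 (98.9% of identifiers found). The members and lists were chosen with earlier results of these data known. Values of every library are given for the 5 members with the largest significant change in each comparison and for BRCA1, BRCA2, FANCD2, ATM, ATR, CHEK1, CHEK2 and MSH6, and from other lists the 3 largest significant changes could be named. Likeness to the members' profile was Pearson's correlation over the group means, and the 5 highest genes were named. Values of some other genes are not reported here.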

Additional observations from a re-analysis of the deposited data

Results flagged for a closer look

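The effect of siGGGGGC, measured against siNT1 of the same time, differed between 24 and 48 h in 19 of the 32 members by the interaction term of edgeR (adjusted p below 0.05). The values are log2 differences, 48 h minus 24 h. Among the strand exchange and end processing genes they were -0.75 for BRCA1, -0.48 for BARD1, -0.41 for BRCA2, -0.69 for RAD51D, -0.83 for XRCC3, -1.36 for RAD54L, -0.73 for RAD54B and -0.60 for EXO1. Among helicases and their partners they were -1.05 for RMI1, -0.90 for RMI2 and -0.82 for BRIP1. In the Fanconi pathway they were -0.95 for FANCA, -0.65 for FANCE, -1.73 for FANCG, -0.58 for FANCM, -1.09 for FANCD2 and -0.61 for FANCI. CHEK2 had -0.56 and MSH6 had -0.82. FANCG and RAD54L rose at 24 h and fell at 48 h, although the rise of RAD54L was lost without any 1 of 6 libraries. All 19 differences lay in the same direction. The summed proliferation markers went from 134.2% of siNT1 at 24 h to 76.9% at 48 h, and their median log2 fold change from 0.25 to -0.50. Their part was not tested.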

How the results depend on the processing

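Every member past the threshold kept its direction under all 18 alternatives (other scalings and filters, the replicate block, DESeq2, libraries compared alone, each library left out). Only members that did not pass changed sign. With no filter on low counts, this was so for BRIP1 0.00485 in siGGGGGC at 24 h, ATM -0.079, CHEK1 -0.033 in siGGGGGC at 48 h, BRCA1 0.0113, BARD1 0.0743, PALB2 0.0388, RAD51D 0.0485, BRIP1 0.0525 in siNT1 over time and UBE2T -0.0132, ATM -0.062 in the interaction. With upper quartile scaling, this was so for CHEK2 -0.0221 in siGGGGGC at 24 h and EXO1 -0.0424 in siNT1 over time. With the libraries compared alone, this was so for CHEK2 -0.000645 in siGGGGGC at 24 h and BARD1 0.00361 in siNT1 over time. With RLE size factors in edgeR, this was so for BRCA1 0.0222 in the direct comparison. With the DESeq2 Wald test, this was so for BRCA1 0.0223 in the direct comparison. Leaving out 1 library at a time also turned the sign of such members, with ranges of RAD51B -0.0666 to 0.23, RAD54B -0.17 to 0.0487, BRIP1 -0.0386 to 0.0393, FANCB -0.00319 to 0.24, FANCC -0.0364 to 0.17, FANCD2 -0.12 to 0.0666, ATM -0.0555 to 0.0128, CHEK2 -0.0235 to 0.0745 for siGGGGGC at 24 h, BLM -0.20 to 0.0302, RMI1 -0.66 to 0.34 for siGGGGGC at 48 h, BRCA1 -0.076 to 0.0691, FANCC -0.0995 to 0.88 for the direct comparison, BARD1 -0.0793 to 0.0792, PALB2 -0.0984 to 0.0232, RAD51C -0.25 to 0.0343, RAD51D -0.0833 to 0.0311, XRCC3 -0.24 to 0.0327, EXO1 -0.042 to 0.0682, RMI1 -0.0605 to 0.94, BRIP1 -0.0772 to 0.0312 for siNT1 over time and UBE2T -0.0345 to 0.26, CHEK1 -0.13 to 0.00219 for the interaction. Counts of members that passed moved by more than 1.5 times as follows. With siGGGGGC at 24 h, 4 rose, but 2 with the replicate number as a block and 1 to 5 with 1 library left out, and 0 fell, but 3 with the libraries compared alone. With siGGGGGC at 48 h, 1 rose, but 0 without a filter on low counts and 0 to 2 with 1 library left out. With siGGCAGU, 4 rose, but 2 without a filter, 2 with the libraries compared alone and 2 to 4 with 1 library left out. In siNT1 over time, 5 fell and 0 rose, but 1 and 3 without a filter, and 0 to 6 and 0 to 3 with 1 library left out. The falls at 48 h stayed at 22 to 25 of 32 with siGGGGGC and 26 to 27 with siGGCAGU under all alternatives. Without a filter the rise of ATR with siGGCAGU was 0.14, against 0.23, and the median of all genes in the interaction was 0.14, against -0.011. The cause of these shifts was not tested.

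The replicate numbers do not pair the samples: the labels give no shared batch, and the deviations of same-numbered libraries from their group means correlated between -0.0894 and 0.0266 over the 10 pairs of groups. With the replicate number as a block, 23 members fell with siGGGGGC at 48 h and 27 with siGGCAGU, and the direct comparison gave 22 higher and 5 lower. Depth limits RMI2 most, the member with the lowest raw count (15), and with 2 wells per group a difference that did not pass may be real and too small to detect.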
